A study of Mus musculus with 14 samples.

Results

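Control mouse embryonic fibroblasts, which carry both copies of Tip60, were compared after 5 days with the same kind of cells after 3 days. The comparison takes every library labelled control, 7 of the 14 libraries of the series, and was made across all measured genes. Tip60, the product of the gene Kat5, is a lysine acetyltransferase that modifies histones and other nuclear proteins. The series was built to compare fibroblasts with and without Tip60 at each of the 2 times, and the 7 control libraries also hold the change that occurs over time while the gene is present.

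All fibroblasts came from E13.5 embryos and were kept at 3% oxygen. The 7 control libraries (3 at day 3, 4 at day 5) have the genotype Tip60+/+. The 7 knock-out (KO) libraries (3 at day 3, 4 at day 5), used here only where a difference from the controls is tested, have the genotype Tip60-/-. Every library, control ones included, carries one treatment text, in which 250 nM 4-hydroxytamoxifen (4-OHT), the drug that switches on the deletion, is given for 3 or 5 days. The labels name no recombinase allele, and whether the control cultures were given 4-OHT is not stated apart from that shared text. Days in culture and days with the drug therefore cannot be told apart in these libraries. Embryo labels tie the control libraries together: 218-e1 gave day 3 replicates 1 and 2 and day 5 replicate 1, 218-e6 gave replicate 3 at both days, and 218-e2 gave day 5 replicate 2. Day 5 replicate 4 came from an embryo of another litter and is the only male among the 7. The 3 day 3 libraries thus stand for 2 embryos of 1 litter, and the labels do not say whether the pair from 218-e1 were separate cultures.

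Embryonic fibroblasts in culture proliferate, secrete collagen-rich matrix and pull on their substrate through actin stress fibres. Proteins bound for secretion are folded in the endoplasmic reticulum (ER). When folding falls behind, the unfolded protein response raises ER chaperones through the transcription factors ATF6 and XBP1, and the kinase PERK acts through ATF4, which also answers to a shortage of amino acids or haem (the integrated stress response). Hypoxia-inducible factors raise glycolytic enzymes when oxygen is low, and E2F and the DREAM and MuvB complexes time the genes of DNA replication and mitosis.

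Total counts ran from 9160637 to 12908651 in the day 3 control libraries and from 6064694 to 19310829 in those of day 5. On the first principal component of the 7 libraries (56.6% of the variance) the day 3 libraries lay between -50.2 and -43.6, day 5 replicates 1 to 3 between 25 and 32.0, and replicate 4 at 53.8. The second component (21.0%) set replicate 4, at -51.3, apart from the other day 5 libraries, at 21.2 to 24.3. The root mean square log2 difference between libraries was 0.363 to 0.468 within day 3, 0.322 to 0.424 among day 5 replicates 1 to 3, 0.68 to 0.704 between replicate 4 and those 3, and 0.709 to 0.98 across days. Replicate 4 stood apart from the other 3 day 5 libraries in 1351 of 14327 genes (9.43%) by Dixon's test, against 85 to 154 for each of the others. Some results that rest on it are given below with and without it, others only with it. Fits with the embryo as a block, cited below, also leave replicate 4 out of the control change, and day 5 replicate 2 as well. Kat5 was at 31.5, 32.3 and 32.0 CPM (counts scaled to a common library size) at day 3 and at 30.9, 29.8, 32.1 and 30.9 CPM at day 5, a log2 change of -0.05 ± 0.08 (SE; adjusted p = 0.646). Its groups overlapped. Fibroblast markers summed to 23700 to 28100 CPM at day 3 and to 27700 to 32700 CPM at day 5.

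Of 14327 genes tested, 5481 (38.3%) changed between day 3 and day 5: 2625 (18.3%) rose and 2856 (19.9%) fell. Here and below, a gene is said to rise or fall when its adjusted p is under 0.05 after Benjamini-Hochberg adjustment over all tested genes in the quasi-likelihood test of edgeR, and adjusted p always means that value. Most changes were modest. The median size among the genes that changed was 0.605 on the log2 scale, 770 rose and 685 fell by more than 2-fold, and 1141 (7.96%) moved by significantly more than 1.5-fold. The median log2 change over all tested genes was -0.002, with quartiles at -0.317 and 0.323. In 6120 genes (42.7%) the values of the 2 days did not overlap, and 5035 of these were among the genes that changed. Counts for gene lists below are to be read against these shares. In bulk RNA, a change in the number of cells of a type and a change in RNA per cell cannot be told apart.

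**Figure D1:**
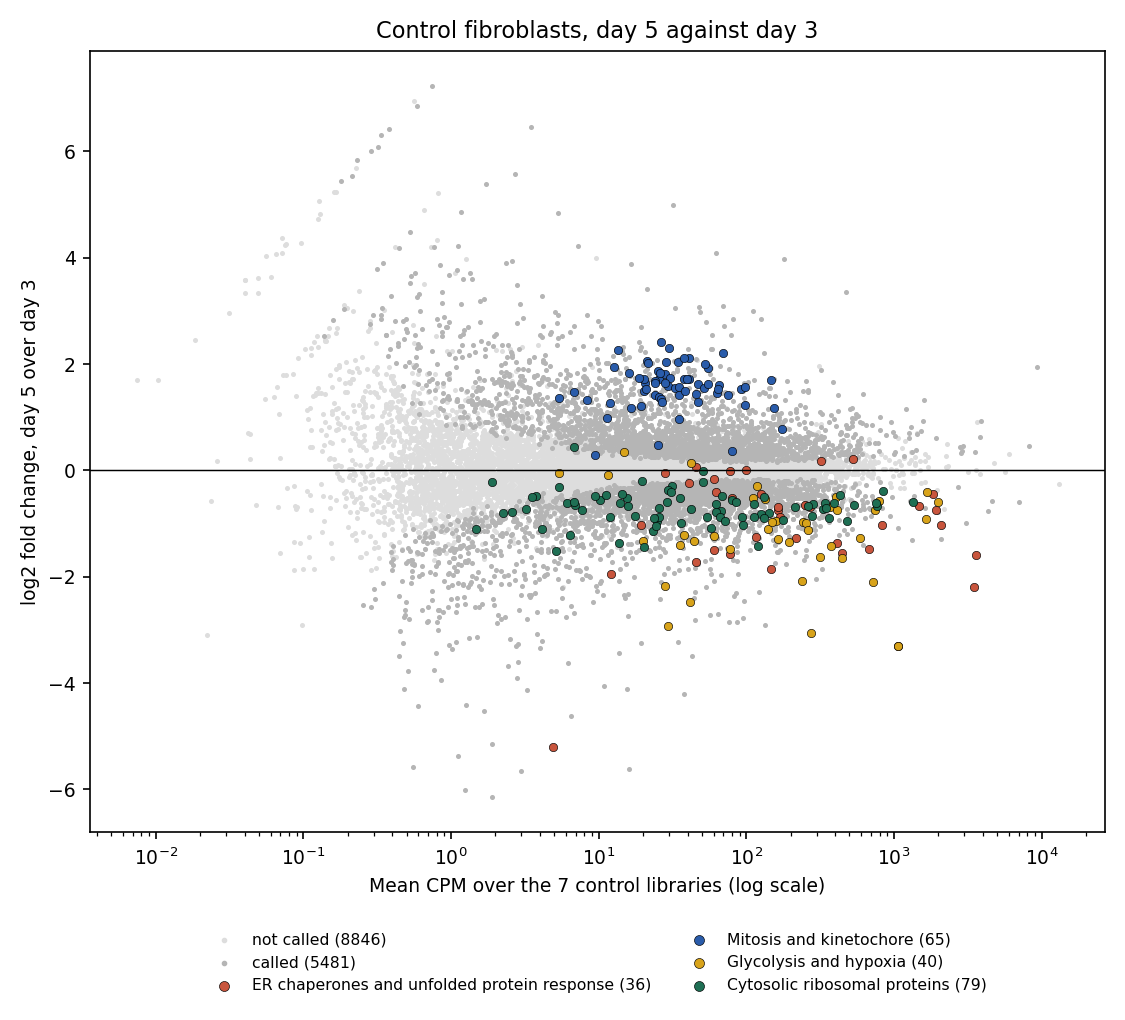
Each dot is 1 of 14327 tested genes, with mean CPM over the 7 control libraries on the log-scaled x axis and log2 fold change of day 5 over day 3 on the y axis; light grey dots did not pass the test (8846 genes), darker grey dots did (5481), and coloured dots are members of 4 gene lists. Mitosis genes lie above 0, ER chaperones, hypoxia genes and ribosomal proteins almost all below it.

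ER chaperones and other genes of the unfolded protein response were lower at day 5. Of 36 members tested, 28 fell, 1 rose and 7 did not pass the test, with a median log2 change of -0.82 against -0.002 over all genes. Hspa5, which encodes BiP, the main ER chaperone of the Hsp70 family, had 7250, 5360 and 6150 CPM at day 3 and 1260, 1280, 1410 and 1520 CPM at day 5. All 4 day 5 libraries were far under all 3 day 3 libraries, a fall of 4.57-fold (log2 -2.19 ± 0.11, adjusted p = 7.94e-09). Hsp90b1, the ER member of the Hsp90 family, went from 5400, 6040 and 6140 CPM to 1850, 1850, 1940 and 2120 CPM, a fall of 3.02-fold (log2 -1.59 ± 0.09, adjusted p = 3e-08). Derl3, part of the machinery that moves misfolded proteins out of the ER, was at 8.33, 11.4 and 14 CPM and then at 0.0644, 0.311, 0.326 and 0.509 CPM, a fall of 36.7-fold (adjusted p = 8.67e-07). Its day 5 values rest on very few counts. The sensor Atf6 fell 2.38-fold (adjusted p = 1.11e-08), the BiP cofactor Sdf2l1 3.28-fold (adjusted p = 1.03e-08) and Hyou1, an exchange factor for BiP, 2.92-fold (adjusted p = 3e-08). Ero1a, the oxidase that drives disulphide formation and also a hypoxia target, had 2600, 1870 and 2090 CPM at day 3 and 213, 250, 255 and 170 CPM at day 5. That is a fall of 9.85-fold (log2 -3.30 ± 0.15, adjusted p = 4.79e-09), with no overlap. The member that rose was the disulphide isomerase Txndc5, by 0.21 on the log2 scale (adjusted p = 0.039), chosen after its values were seen. Its adjusted p was 0.35 with the embryo as a block and 0.0901 without day 5 replicate 4.

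Promoters of several of these genes hold the ER stress response element, the pairing of CCAAT with CCACG at a spacing of 9 bases to which ATF6 binds together with NF-Y. The windows searched ran from 250 bases before to 50 bases after each RefSeq gene start (GRCm38.p6), on both strands, and existed for 10994 of the tested genes. The element was present in 18 of 14051 windows (0.128%), and 10 of those 18 lay among the 35 windows of the ER list (28.6%). Of the 18 genes with the element, 13 fell, 0 rose and 5 did not pass the test, with a median log2 change of -0.68. Among the 8 outside the list, 3 fell, namely Zfp57 (log2 -1.07), Alg12 (-0.56) and Pan2 (-0.50), named after their values were seen. The list was written from knowledge of this pathway and with earlier results of these data known. The share of its windows with the element is therefore no independent result. The same holds for each list below whose windows were searched for an element. For those lists, the shares over all genes that fell or rose include the list's own changed members. They are therefore no independent result either. Examples are printed to show the element in genes that fell, with its CCAAT and CCACG (or their reverse complements ATTGG and CGTGG) in capitals and each sequence read 5′ to 3′ along the gene's strand. They lie at chr2:34772013-34772055 (plus strand) for Hspa5, chr10:75893230-75893272 (plus) for Derl3, chr8:84847063-84847105 (minus) for Calr, chr15:88819508-88819550 (plus) for Creld2, chr12:17266479-17266521 (plus) for Pdia6 and chr13:12565670-12565712 (plus) for Ero1b, all upstream of the gene start.
Hspa5: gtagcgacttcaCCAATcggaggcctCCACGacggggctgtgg
Derl3: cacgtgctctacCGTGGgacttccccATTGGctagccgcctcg
Calr: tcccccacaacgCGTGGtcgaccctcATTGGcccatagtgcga
Creld2: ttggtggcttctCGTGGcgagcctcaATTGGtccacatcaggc
Pdia6: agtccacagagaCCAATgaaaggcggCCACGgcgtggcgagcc
Ero1b: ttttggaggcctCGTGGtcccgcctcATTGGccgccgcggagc
The calcium-binding chaperone Calr fell 2.04-fold, the disulphide isomerase Pdia6 2.05-fold, Creld2 2.98-fold and the oxidase Ero1b 3.87-fold (adjusted p from 2.15e-07 to 3.13e-06).

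Not all of the secretory pathway moved this way. Of 53 genes for translocation, N-glycosylation and vesicle transport, 14 rose, 7 fell and 32 did not pass the test, with a median log2 change of -0.01. With the embryo as a block 8 rose.

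Targets of ATF4 fell together. Of 26 members tested, 24 fell, 0 rose and 2 did not pass, with a median log2 change of -1.20. Ddit3, the transcription factor CHOP, had 278, 260 and 251 CPM at day 3 and 33.5, 36.7, 42.4 and 29.0 CPM at day 5, a fall of 7.47-fold (log2 -2.90 ± 0.11, adjusted p = 8.72e-10). Atf3 went from 43.5, 39.2 and 36.3 CPM to 4.25, 5.55, 4.07 and 2.62 CPM, a fall of 9.47-fold (adjusted p = 3e-08). In neither gene did a day 5 library reach a day 3 library. Ppp1r15a, the subunit that directs a phosphatase to eIF2α, fell 4.97-fold (adjusted p = 1.5e-09), the glutathione-degrading enzyme Chac1 4.56-fold (adjusted p = 6.26e-09) and the amino acid transporter subunit Slc3a2 2.83-fold (adjusted p = 1.24e-08). The C/EBP-ATF response element was searched for as TGATGCAA on either strand. It was in 7 of the 30 windows of this list (23.3%) and in 0.598% of all windows. Over all genes that fell it was in 1.08% of windows, and over all that rose in 0.452%. Chac1 (chr2:119351037-119351068, plus strand) and Atf3 (chr1:191183424-191183455, minus strand) are shown with the element, here as its reverse complement, in capitals.
Chac1: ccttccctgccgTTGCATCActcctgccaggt
Atf3: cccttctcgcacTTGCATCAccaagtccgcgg

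Amino acid genes that ATF4 is known to control were lower as well. Among 20 cytosolic aminoacyl-tRNA synthetases, which charge tRNAs with amino acids, 13 fell, 2 rose (Hars and Mars1, named after their values were seen) and 5 did not pass, with a median log2 change of -0.55. Wars fell 2.88-fold, from 272, 265 and 254 CPM to 91.2, 105, 91.1 and 77.8 CPM (adjusted p = 3.45e-08), and Sars 2.34-fold (adjusted p = 4.39e-08). The call for Mars1 was lost without any 1 of 5 libraries. Of 18 serine and one-carbon enzymes, 12 fell, 3 rose and 3 did not pass, with a median log2 change of -0.78. The mitochondrial folate enzyme Aldh1l2 had 570, 457 and 552 CPM at day 3 and 124, 135, 136 and 117 CPM at day 5 (4.11-fold lower, adjusted p = 1.5e-09), and the serine-synthesis enzyme Psph fell 2.4-fold (adjusted p = 1.63e-06). Among those that rose were Tyms, which makes thymidylate for DNA synthesis, and the folate enzyme Mthfd1. Tyms went from 6.85, 5.61 and 6.44 CPM to 18.7, 19.9, 18.3 and 12.6 CPM (2.76-fold higher, adjusted p = 6.57e-06). Mthfd1 was named after its values were seen, and its call (log2 0.35) was lost when any of 4 libraries was left out.

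**Figure D2:**
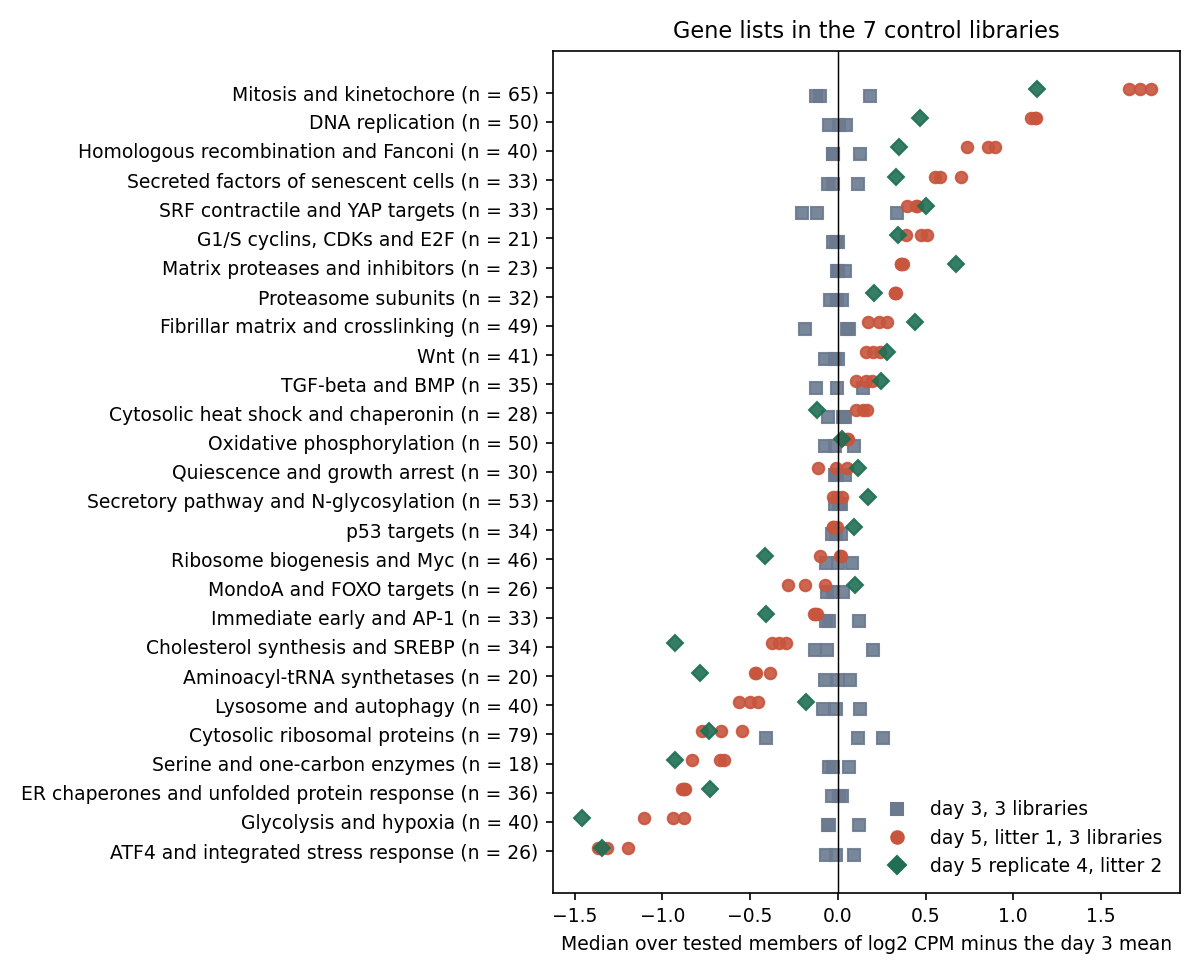
For each of 27 gene lists (rows, with the number of tested members), the x axis gives the median over members of log2 CPM minus the gene's day 3 mean, 1 point per control library: squares for day 3, circles for day 5 replicates 1 to 3 and a diamond for day 5 replicate 4. In the mitosis list the circles lie at 1.66 to 1.79 and the diamond at 1.14; in the ATF4 list all 4 day 5 points lie between -1.37 and -1.20.

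Genes of glycolysis and of the hypoxia response were lower at day 5, although the stated oxygen level was the same. Of 40 members tested, 35 fell, 0 rose and 5 did not pass, with a median log2 change of -1.11. Vegfa, a hypoxia-inducible growth factor for blood vessels, had 811, 663 and 714 CPM at day 3 and 241, 273, 243 and 176 CPM at day 5, a fall of 3.13-fold (adjusted p = 9.11e-07). The collagen prolyl hydroxylase subunit P4ha2 fell 2.69-fold (adjusted p = 4.26e-07) and Mxi1, a partner of Max that opposes Myc, 2.37-fold (adjusted p = 9.41e-07). The aldolase Aldoc, chosen after its values were seen, had 47.7, 57.0 and 46.0 CPM and then 13.1, 12.5, 11.9 and 7.35 CPM (adjusted p = 1.48e-06). The list's median relative to day 3 was -1.10, -0.88 and -0.94 in day 5 replicates 1 to 3 and -1.46 in replicate 4. The core of the hypoxia response element was searched for as ACGTG on either strand. It was in 30 of 55 windows of the list (54.5%) and in 24.8% of all windows. Over all genes that fell it was in 30.9% of windows, and over all that rose in 22.6%. Oxidative phosphorylation genes did not show a matching change: of 50 tested, 10 rose, 1 fell and 39 did not pass, with a median log2 change of 0.02, and 3 rose without day 3 replicate 3 and 6 without day 3 replicate 1, without day 5 replicate 2 or with the embryo as a block.

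Lipid and lysosomal genes also fell. Of 34 genes of cholesterol and fatty acid synthesis under SREBP, 17 fell and 0 rose, with a median log2 change of -0.46. The stearoyl-CoA desaturase Scd2 went from 3930, 4530 and 4340 CPM to 2280, 2270, 2240 and 1790 CPM (1.99-fold lower, adjusted p = 0.000195). Insig1, which holds SREBP in the ER, fell 2.36-fold (adjusted p = 0.000502). The median over the list was -0.30 to -0.38 in day 5 replicates 1 to 3 and -0.93 in replicate 4; 13 fell without replicate 4 and 11 without day 3 replicate 2. Of 40 lysosome and autophagy genes, 25 fell and 3 rose, with a median log2 change of -0.42. Npc1, which exports cholesterol from lysosomes, fell 2.25-fold, from 161, 163 and 173 CPM to 69.8, 70.9, 68.8 and 84.9 CPM (adjusted p = 4.39e-08), and the autophagy receptor Sqstm1 2.65-fold (adjusted p = 2.37e-07).

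Cell cycle genes rose. Of 65 genes of mitosis and the kinetochore, 64 rose, 0 fell and 1 did not pass, the securin gene Pttg1 (log2 0.29, adjusted p = 0.0805, named after its values were seen), with a median log2 change of 1.59. In all 64 the days did not overlap. The mitotic kinase Plk1 had 9.59, 10.0 and 7.93 CPM at day 3 and 49.4, 47.8, 47.1 and 36.7 CPM at day 5, a rise of 4.92-fold (log2 2.30 ± 0.14, adjusted p = 5.06e-08). Nuf2, a subunit of the kinetochore complex that binds microtubules, rose 5.36-fold, from 9.82, 5.68 and 7.47 CPM to 40, 43.9, 46.6 and 32.0 CPM (adjusted p = 2.99e-07). The spindle protein Nusap1 rose 3.56-fold (adjusted p = 5.4e-07). Replicate 4 was the lowest of the day 5 libraries for each of these genes, and its list median was 1.14 against 1.66 to 1.79 in the other 3.

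The cell cycle homology region, through which MuvB complexes act, was searched for as the letters TTTGAA on either strand. It was in 42 of 62 windows of this list (67.7%) and in 11.9% of all windows. Over all genes that rose it was in 15.1% of windows, and over all that fell in 9.68%. Cdk1 (chr10:69352913-69352995, minus strand), the kinase that starts mitosis, and Ccnb2 (chr9:70421704-70421733, minus strand), a cyclin that activates it, are shown with these letters in capitals.
Cdk1: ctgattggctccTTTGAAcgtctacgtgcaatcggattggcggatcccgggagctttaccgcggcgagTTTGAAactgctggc
Ccnb2: cagggactagaaTTTGAAaataagactgta
Cdk1 went from 35.7, 29.9 and 30.0 CPM to 91.6, 94.8, 96.1 and 64.8 CPM (2.73-fold, adjusted p = 2.97e-05). Ccnb2 went from 15.1, 12.1 and 9.80 CPM to 49.9, 57.8, 60.1 and 35.3 CPM (4.13-fold, adjusted p = 2.21e-06). Both were chosen for their promoters and not by the rule for named genes.

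DNA replication genes followed. Of 50 tested, 41 rose, 0 fell and 9 did not pass, with a median log2 change of 1.02. Rrm2, the regulated subunit of the enzyme that makes deoxynucleotides, had 22, 20.2 and 20.2 CPM at day 3 and 140, 135, 120 and 92.9 CPM at day 5, a rise of 5.87-fold (log2 2.55 ± 0.17, adjusted p = 1.43e-07). The replicative helicase subunit Mcm4 rose 2.76-fold, from 40.9, 38.8 and 39.9 CPM to 119, 122, 122 and 76.4 CPM (adjusted p = 7.93e-06), the loading factor Cdc6 3.38-fold (adjusted p = 8.63e-06) and the single-strand binding protein Rpa1 2.21-fold (adjusted p = 2.06e-07). The E2F site TTTCCCGC was in 7 of 49 windows of the list (14.3%) and in 1.94% of all windows. Over all genes that rose it was in 2.56% of windows, and over all that fell in 1.36%. Among 21 genes of the G1/S transition, 12 rose, 1 fell and 8 did not pass, with a median log2 change of 0.41. Cyclin E genes Ccne1 (2.79-fold, adjusted p = 3.45e-08) and Ccne2 (3.3-fold, adjusted p = 5.48e-06) and the cyclin D gene Ccnd1 (1.81-fold, adjusted p = 1.26e-05) were among those that rose. The member that fell was Cdk4, by 0.25 on the log2 scale (adjusted p = 0.0116), chosen after its values were seen, and its adjusted p was 0.118 with the embryo as a block. Of 40 homologous recombination and Fanconi genes 22 rose and 4 fell (median log2 change 0.72; 2 fell without day 3 replicate 3 or with the embryo as a block), with Fanca 3.19-fold higher (adjusted p = 5.1e-06) and Brca1 2.84-fold higher (adjusted p = 1.43e-05).

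The 7 inhibitors of cyclin-dependent kinases did not move as a group. Cdkn1c, an imprinted inhibitor, fell 3.2-fold, from 121, 140 and 139 CPM to 45.2, 48.7, 50.8 and 22.5 CPM (adjusted p = 0.000308). Cdkn2c rose 2.41-fold, from 3.54, 3.27 and 4.48 CPM to 8.37, 8.82, 8.31 and 10.7 CPM (adjusted p = 6.28e-05). Cdkn2d rose by 0.41 on the log2 scale (adjusted p = 0.0264), a call lost with the embryo as a block (adjusted p = 0.0843) and without any 1 of 4 libraries. Cdkn1a, the p53 target p21, had 435, 449 and 434 CPM at day 3 and 468, 461, 440 and 532 CPM at day 5 (log2 0.12 ± 0.08, adjusted p = 0.254). Cdkn2a, which encodes p16 and p19Arf, was at log2 0.24 (adjusted p = 0.188), Cdkn1b at -0.21 (adjusted p = 0.169) and Cdkn2b at -0.19 (adjusted p = 0.128). Without day 5 replicate 4 the last pair passed the test as lower (adjusted p = 0.0425 and 0.0386). Over 34 p53 targets, 12 rose and 6 fell with a median log2 change of -0.01: the death receptor gene Fas rose 2.97-fold (adjusted p = 4.48e-05) and the cytokine gene Gdf15 fell 2.42-fold (adjusted p = 9.64e-05).

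**Figure D3:**
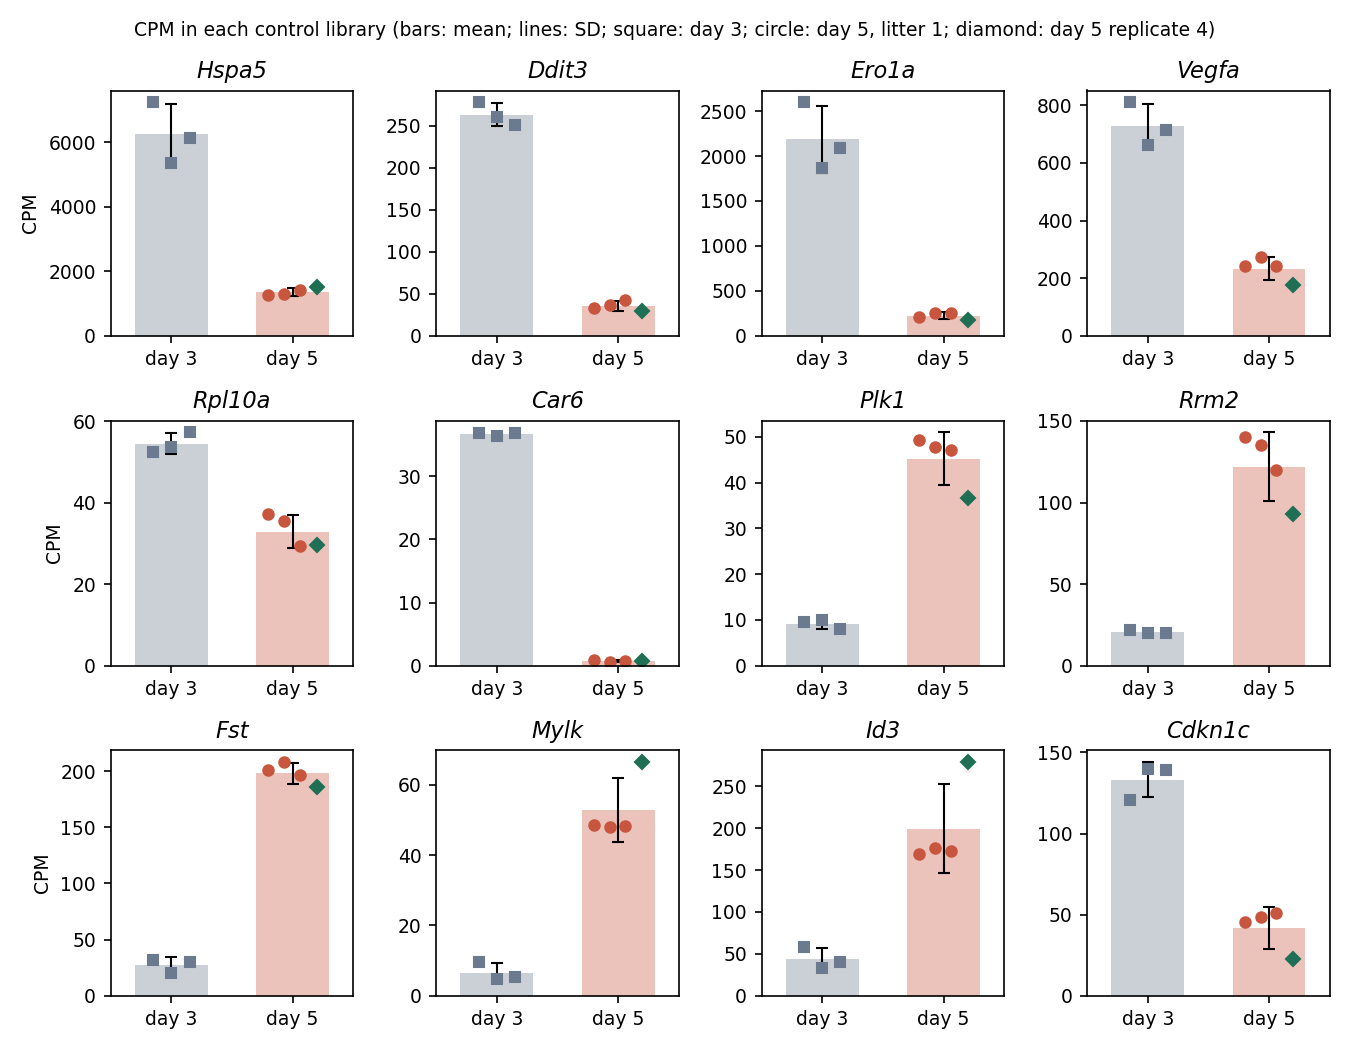
CPM (y axis, from 0) of 12 genes in each control library at day 3 and day 5; squares are day 3 libraries, circles day 5 replicates 1 to 3, diamonds day 5 replicate 4, bars the mean and black lines the SD (n = 3 and 4). In all 12 genes the 2 days do not overlap, and replicate 4 is the highest day 5 library for Mylk (66.5) and Id3 (279) and the lowest for Plk1 (36.7) and Rrm2 (92.9).

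Genes of the translation machinery were lower. Of 79 cytosolic ribosomal protein genes, 54 fell, 1 rose and 24 did not pass, with a median log2 change of -0.68. The count depended on which libraries entered: 25 fell with the embryo as a block, 39 without day 5 replicate 4, 34 without day 5 replicate 2, 33 without day 5 replicate 3, 23 without day 3 replicate 2, 25 without day 3 replicate 3 and 62 without day 3 replicate 1. Relative to their mean, the day 3 libraries themselves lay at -0.41, 0.26 and 0.12 over this list, a wider spread than that of the day 5 libraries (-0.77 to -0.55). Rpl4 went from 1530, 1830 and 1660 CPM to 1120, 1140, 1090 and 1100 CPM (1.5-fold lower, adjusted p = 0.00015), and the stalk protein gene Rplp0 fell 1.58-fold (adjusted p = 0.000394). Rpl10a fell 1.65-fold, with 52.4, 53.7 and 57.3 CPM at day 3 and 37.1, 35.6, 29.3 and 29.7 CPM at day 5 (adjusted p = 5.82e-05). The member that rose was Rpl27 (log2 0.45, adjusted p = 0.0405), chosen after its values were seen, and its call was lost in 10 of 19 alternatives. Ribosomal protein genes have many processed pseudogenes, and reads shared with them could be counted for either. The elongation factors Eef1a1 (1.5-fold lower, adjusted p = 0.000379) and Eef2 (1.7-fold lower, adjusted p = 2.04e-05) were among the 5 most highly counted genes that fell, and for Eef2 the values were 5280, 6140 and 5570 CPM at day 3 and 3160, 3350, 3330 and 3510 CPM at day 5.

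More ribosome assembly genes fell than rose. Of 46 genes of ribosome biogenesis and the Myc programme, 13 fell and 2 rose with a median log2 change of -0.11, and 8 rose without replicate 4. Myc itself fell 2.13-fold, from 146, 137 and 129 CPM to 72.5, 69.0, 68.0 and 48.6 CPM (adjusted p = 7.04e-06), the nucleolar chaperone Npm1 fell 1.85-fold (adjusted p = 2.8e-05) and the assembly factor Bop1 rose 1.75-fold (adjusted p = 1.21e-05). Of 32 proteasome subunits 21 rose and 1 fell (median log2 change 0.31), with the ATPase subunit Psmc3 at 121, 119 and 113 CPM and then 173, 186, 171 and 170 CPM (1.49-fold higher, adjusted p = 7.29e-06). Cytosolic heat shock and chaperonin genes were mixed, 8 of 28 rising and 7 falling (4 with the embryo as a block), and the constitutive Hsp70 gene Hspa8 fell 1.65-fold (adjusted p = 7.54e-05).

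Contractile genes rose, with a spread at day 3 that matters for the count. Of 33 targets of SRF and YAP tested, 18 rose, 1 fell and 14 did not pass, with a median log2 change of 0.49. With the embryo as a block 9 rose, and 25 rose without day 3 replicate 1, the highest of the 3 day 3 libraries in this list (median 0.34 against -0.20 and -0.12). Mylk, the kinase that activates myosin, had 9.59, 4.83 and 5.23 CPM at day 3 and 48.7, 48.0, 48.2 and 66.5 CPM at day 5, a rise of 8.26-fold (log2 3.05 ± 0.24, adjusted p = 1.05e-06). The tropomyosin gene Tpm1 rose 2.5-fold, from 1100, 720 and 745 CPM to 2130, 2280, 2100 and 2060 CPM (adjusted p = 4.27e-05), and the myosin light chain gene Myl9 2.67-fold (adjusted p = 5.36e-05). Acta2, smooth muscle actin, rose 1.9-fold, from 3680, 1800 and 2180 CPM to 4460, 4880, 4690 and 5390 CPM (adjusted p = 0.0024), and the cytoplasmic actin gene Actb 1.55-fold (adjusted p = 0.0101). With the embryo as a block Acta2 did not pass (adjusted p = 0.0686), nor did calponin, Cnn1 (0.0887). Of 12 markers of smooth muscle and pericytes, other cell types an embryo culture could hold, 8 rose and 1 fell (3 rose with the embryo as a block), and none was at 0. Their summed level was 2450 to 4720 CPM at day 3 and 5600 to 7290 CPM at day 5, but 2 of the markers, Acta2 and Cnn1, are also in the contractile list, and Acta2 makes up most of the sum. Of the other 10 markers 6 rose and 1 fell, and their summed levels overlapped, with 590 to 863 CPM at day 3, 828 to 834 CPM in day 5 replicates 1 to 3 and 1380 CPM in replicate 4. Their part in the result was not tested.

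Matrix genes rose in part. Of 49 genes for fibrillar matrix and its crosslinking 17 rose, 5 fell and 27 did not pass, with a median log2 change of 0.28. Without day 3 replicate 2 11 rose, and without day 5 replicate 4 8 fell. Col1a1, the main chain of type I collagen, had 7560, 5560 and 7190 CPM at day 3 and 8220, 8500, 9210 and 11200 CPM at day 5 (1.37-fold, adjusted p = 0.0259), a rise not called with the embryo as a block (adjusted p = 0.148), without day 3 replicate 2 (0.128) or without day 5 replicate 4 (0.0509). The elastic fibre glycoprotein Emilin1 rose 2.93-fold, from 63.9, 72.1 and 71.5 CPM to 160, 170, 202 and 281 CPM (adjusted p = 1.75e-05). Plod2, a collagen lysyl hydroxylase induced by hypoxia, fell 2.15-fold (adjusted p = 1.65e-06) and the matrix protein Fbln2 fell 1.48-fold (adjusted p = 0.00191). Thrombospondin, Thbs1, had 4390, 2680 and 3540 CPM at day 3 and 10700, 10800, 10600 and 22700 CPM at day 5, a rise of 3.87-fold (adjusted p = 7.76e-05), with replicate 4 far above the other 3. Of 23 matrix proteases and inhibitors 7 rose and 3 fell. Plau, urokinase, rose 2.81-fold, from 55.5, 40.7 and 44.3 CPM to 122, 132, 127 and 144 CPM (adjusted p = 5.1e-07), and the inhibitor Timp1 2.1-fold (adjusted p = 7.35e-07).

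In both signalling lists more members rose than fell. Of 35 genes of TGF-β and BMP signalling 12 rose and 4 fell (2 fell without day 3 replicate 2), with a median log2 change of 0.28. Follistatin, Fst, a secreted antagonist of activin, had 32.2, 20.4 and 30.4 CPM at day 3 and 201, 208, 197 and 186 CPM at day 5, a rise of 7.19-fold (log2 2.85 ± 0.14, adjusted p = 6.88e-09). The BMP target genes Id1, Id2 and Id3, which encode inhibitors of helix-loop-helix transcription factors, rose 3.82-fold, 2.5-fold and 4.6-fold (adjusted p from 4.98e-06 to 1.49e-05), and Id3 went from 58.1, 32.9 and 39.9 CPM to 169, 177, 173 and 279 CPM. The ligand gene Bmp6 fell 2.47-fold (adjusted p = 0.00141). Of 41 Wnt genes 11 rose and 2 fell, but 7 rose without day 3 replicate 1 and 5 without day 3 replicate 2 or 3. The secreted Wnt antagonist Sfrp1 rose 4.88-fold, from 17.9, 17.3 and 19.4 CPM to 78.5, 82.8, 93.2 and 101 CPM (adjusted p = 2.3e-07), Dkk3 3.27-fold (adjusted p = 0.000156) and the ligand gene Wnt2 3.1-fold (adjusted p = 2.34e-05). Snai1, a repressor of epithelial genes, rose 3.23-fold, from 19.9, 16.7 and 19.4 CPM to 60.1, 59.3, 60.1 and 61.2 CPM (adjusted p = 1.74e-08).

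Cytokines and stress-linked transcription factors gave mixed counts. Of 33 secreted factors associated with senescent cells 9 rose and 3 fell, with a median log2 change of 0.71; Il6, chosen after its values were seen, went from 1.03, 0.234 and 0.84 CPM to 6.69, 5.35, 10.9 and 4.00 CPM (adjusted p = 0.00212). Interferon and inflammation genes mostly did not pass: 4 of 48 rose and 3 fell. The number that rose was 7 without day 5 control replicate 4, 9 without day 3 KO replicate 2, 8 without day 3 KO replicate 4 and 2 with the embryo as a block, and 1 fell without day 3 control replicate 2. The class I antigen gene H2-K1 fell 2.51-fold (adjusted p = 5.36e-06), and Ifitm1 rose 4.22-fold (adjusted p = 0.00671, and 0.0941 with the embryo as a block). Of 16 complement genes 3 rose and 1 fell, and of 23 NRF2 targets 3 rose and 5 fell (3 with the embryo as a block or without day 5 replicate 3). Of 33 immediate early genes 10 fell and 4 rose (1 or 2 without day 3 replicate 2 or 3 or day 5 replicate 1 or 2), with Klf4 falling 2.38-fold, from 390, 433 and 435 CPM to 160, 170, 175 and 199 CPM (adjusted p = 5.06e-08). The 30 genes of quiescence divided evenly, 8 rising and 8 falling (4 rising without day 3 replicate 1, 5 without replicate 3). Targets of MondoA and FOXO did the same, with 7 of 26 rising and 7 falling (12 falling without replicate 4): Gadd45a, a stress gene also induced by ATF4, fell 6.6-fold, from 116, 100 and 112 CPM to 16.3, 15.9, 18.9 and 15.8 CPM (adjusted p = 3.34e-10), Klf15 fell 6.4-fold (adjusted p = 1.25e-05), and Txnip, chosen after its values were seen, went from 1.26, 2.10 and 1.87 CPM to 9.59, 5.71, 6.03 and 31.6 CPM (adjusted p = 0.00485). Of 18 circadian clock genes 8 fell and 1 rose, with a median log2 change of -0.45. The repressor genes Cry1 and Nfil3 fell 2.18-fold (adjusted p = 0.000106) and 1.92-fold (adjusted p = 4.84e-05), the activator gene Arntl 1.85-fold (adjusted p = 0.00108), and Ciart 3.94-fold (adjusted p = 8.06e-05), from 15.8, 15.4 and 14.0 CPM to 3.35, 5.66, 4.24 and 1.96 CPM. The hour of collection is not in the labels.

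Kat5 did not pass the test, but 8 of the 18 genes of the Tip60 complex fell and 0 rose, with a median log2 change of -0.25. The scaffold gene Trrap fell 1.29-fold (adjusted p = 0.000984) and the histone-reader gene Mbtd1 1.56-fold, from 41.9, 42.4 and 43.5 CPM to 27.2, 23.6, 26.9 and 31.5 CPM (adjusted p = 8.2e-05). Of 16 genes for the histone variant H2A.Z and its exchange 2 rose and 5 fell. The number that fell was 2 with the embryo as a block and 3 without day 3 replicate 2, day 3 replicate 3 or day 5 replicate 3.

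The largest rises were ranked among genes that passed the test with at least 2 CPM at the higher time. Only genes whose days did not overlap were ranked, and clone names were passed over. The size of these rises was often set by replicate 4. Cemip, a hyaluronan-degrading protein, had 22.1, 13.9 and 22.3 CPM at day 3, 154, 97.7 and 132 CPM in day 5 replicates 1 to 3 and 825 CPM in replicate 4 (15.6-fold on average, adjusted p = 0.00142). Prelp, a proteoglycan of the matrix, had 5.59, 5.30 and 7.56 CPM and then 36.0, 34.8, 48.4 and 297 CPM (adjusted p = 0.00653), and Rarres1 0.799, 0.389 and 0.84 CPM and then 5.02, 5.40, 6.03 and 32.1 CPM (adjusted p = 0.00229). The chemokine Cxcl5 went the other way, with 1.71, 1.79 and 1.59 CPM at day 3, 67.6, 75.4 and 70.2 CPM in day 5 replicates 1 to 3 and 3.71 CPM in replicate 4 (adjusted p = 0.0219). It missed the threshold in 6 of 19 alternatives, among them leaving out each day 3 library in turn (adjusted p = 0.0631, 0.071 and 0.0699). Another chemokine, Ppbp, was at 0 to 0.114 CPM at day 3 and at 3.09, 4.15, 4.07 and 0.655 CPM at day 5 (adjusted p = 0.00124). Ism1 was at 0 to 0.0933 CPM and then 1.29, 1.19, 1.30 and 4.22 CPM (adjusted p = 0.00109), and Ano5 at 0.228 to 0.312 CPM and then 3.54, 1.71, 2.93 and 9.16 CPM (adjusted p = 0.000805). Without replicate 4 the aldehyde dehydrogenase gene Aldh1a7, C4bp and Elobl did not pass (adjusted p = 0.0844, 0.152 and 0.0519). Aldh1a7 was at 0 to 0.0933 CPM at day 3 and then at 0.644, 1.14, 2.12 and 20.4 CPM. For C4bp the values were 0 to 0.187 CPM, then 0.386, 0.363, 0.489 and 17.6 CPM. Those of Elobl were 0 to 0.467 CPM, then 2.38, 1.71, 4.07 and 7.56 CPM. The day 3 values of these genes rest on a handful of counts, so no fold is given for them.

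The largest falls were ranked by the same rule, so by selection no day 5 library reached a day 3 library in them. Car6, a secreted carbonic anhydrase, had 36.8, 36.4 and 36.9 CPM at day 3 and 0.901, 0.571, 0.815 and 0.727 CPM at day 5, a fall of 49.3-fold (log2 -5.62 ± 0.33, adjusted p = 3.9e-08). Nrip2 had 11.8, 15.3 and 16 CPM and then 0.644, 0.727, 0.326 and 0.436 CPM (24.7-fold lower, adjusted p = 1.26e-07), and Chchd10, a mitochondrial protein of the cristae, 61.4, 102 and 83.7 CPM and then 4.96, 6.33, 5.54 and 1.16 CPM (18.4-fold lower, adjusted p = 8.68e-06), with replicate 4 the lowest. B4galnt2, Ostn, Taf7l, Ppp1r16b, Cox6a2 and Ecel1 lay between 1.37 and 6.23 CPM in the day 3 libraries and at 0 to 0.326 CPM in those of day 5 (adjusted p from 5.39e-06 to 4.54e-05).

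**Figure D4:**
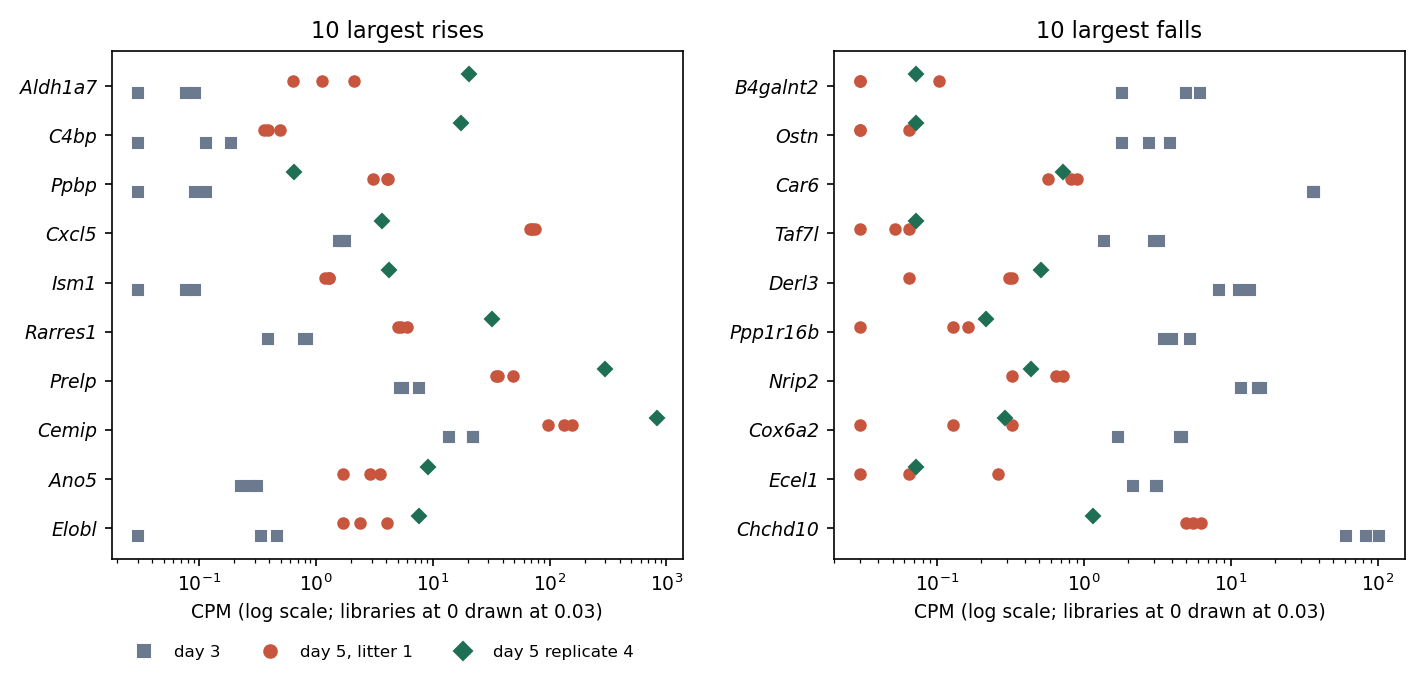
CPM on a log-scaled x axis in each control library for the 10 genes with the largest rises (left) and falls (right); squares are day 3, circles day 5 replicates 1 to 3, diamonds day 5 replicate 4, and a library at 0 is drawn at 0.03. Only genes that passed the test and did not overlap between days were ranked. The 4 day 5 libraries lie together for Car6 (0.571 to 0.901). Replicate 4 lies far above the others for Cemip (825 against 97.7 to 154) and under them for Chchd10 (1.16 against 4.96 to 6.33).

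Markers of cartilage and bone were summed highest in replicate 4. Of 15 markers tested 5 rose and 10 did not pass (3 rose without day 3 replicate 1 or 2). Without day 5 replicate 4, 4 rose, and the median log2 change was 0.20 in place of 2.32. Ucma and Ibsp were at 0 in all 7 libraries, and the summed level was 129 to 229 CPM at day 3, 248 to 427 CPM in day 5 replicates 1 to 3 and 2740 CPM in replicate 4. Col2a1, the collagen of cartilage, had 90.2, 26.2 and 113 CPM at day 3 and 203, 127, 303 and 2470 CPM at day 5 (adjusted p = 0.0195, and 0.0762 with the embryo as a block). Col10a1, of hypertrophic cartilage, had 4.68, 3.43 and 9.80 CPM and then 10.3, 10.9, 17.3 and 79.9 CPM (adjusted p = 0.0356, and 0.116 without replicate 4). Matn3 was at 0.373 to 0.623 CPM and then at 2.45, 2.44, 2.28 and 4.95 CPM (adjusted p = 0.000432), the bone transcription factor Sp7 at 0 to 0.156 CPM and then at 0.467 to 1.60 CPM (adjusted p = 0.00169), and the phosphatase Alpl at 0 in all day 3 libraries and at 0.489 to 0.80 CPM at day 5 (adjusted p = 0.0107). Of 15 macrophage markers 4 fell, Cd68 among them (2-fold, adjusted p = 0.000431), but 1 or 2 fell without day 3 replicate 1 or 2, without day 5 replicate 2, 3 or 4 or with the embryo as a block; their summed level was 129 to 185 CPM at day 3 and 125 to 168 CPM at day 5. Of the endothelial markers 1 of 10 rose and 2 fell, of the neural markers 3 of 14 rose (1 without day 3 replicate 2 or day 5 replicate 4) and 2 fell, of the epithelial markers 1 of 7 fell, and of the skeletal muscle (10) and adipocyte (6) markers 0 passed the test in edgeR. At an unadjusted p under 0.05 there were 0 and 1, and DESeq2 called 0 and 1. Of the adipocyte markers 3 fell with the embryo as a block, 4 with the replicate number as a block, and 1 without day 5 replicate 1 or 4. No blood or liver marker had enough counts to be tested. The part of these cell types in the other results was not tested.

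The change over time was then set against the same change in KO cells, with no library shared between the 2 contrasts. By the labels, no embryo gave both control and KO libraries, so genotype and embryo cannot be told apart in this comparison. The day 3 controls were all female, while the KO libraries of day 3 hold both sexes. KO day 5 replicate 1 came from an embryo that was not sampled at day 3. The part of the embryo in the differences below was not tested. In KO cells 713 genes rose (4.98%) and 1012 fell (7.06%). Total counts in the KO libraries were 39203154, 2187168 and 10488613 at day 3 and 13452590 to 27172076 at day 5. With depths so uneven, fewer calls in KO do not by themselves mean smaller changes. Of the genes that changed in control cells 21.4% changed in KO cells too, and 68.1% of the KO changes were found in control cells; 1096 of these 1174 shared genes went the same way. The difference between the 2 changes passed the test in 2051 genes, being higher in KO in 1026 (7.16%) and lower in 1025 (7.15%). Without day 3 control replicate 3 the difference passed in 1275 genes, with the embryo as a block in 1561 and with sex as a covariate in 2478. Of the genes that rose in control cells 33.8% had such a difference, and of those that fell 31.3%. Genes were named for their control change, so that their differences lean away from it.

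The ER list often differed. In KO cells 5 of its 36 members fell and 0 rose (median log2 change -0.06), and the difference passed in 26, always with the higher change in KO. Hspa5 averaged 1680 ± 65.0 CPM (SD, n = 3) at day 3 in KO cells and 1160 ± 52.2 CPM (SD, n = 4) at day 5 against 6260 ± 947 CPM (SD, n = 3) and 1370 ± 120 CPM (SD, n = 4) in control cells. The KO mean at day 3 was thus under every control library of day 3. The change in KO minus the change in control was 1.66 for Hspa5, 1.55 for Sdf2l1, 1.50 for Hyou1 and 1.13 for Atf6 on the log2 scale (adjusted p from 1.97e-05 to 3.98e-05). Gadd45a (1.62) and the choline kinase gene Chka (1.52), both at adjusted p = 1.97e-05, were the other genes with the strongest evidence of a higher change in KO. Chka fell 3.92-fold in control cells, from 123, 123 and 107 CPM to 30.6, 33.4, 30.0 and 26.0 CPM, and averaged 40.1 and 29.3 CPM in KO.

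The glycolysis and hypoxia list fell in KO cells as well, in 37 of 40 members with a median log2 change of -1.24, and the difference passed in 5 (2 higher, 3 lower). Without day 5 control replicate 4, 12 members had a lower change in KO, and 8 with the embryo as a block. For Vegfa the difference was 0.25 (adjusted p = 0.43). In the cholesterol list 28 of 34 fell in KO. The difference passed in 1 member, but in 6 without day 5 control replicate 4, in 12 with the embryo as a block and in 22 with the replicate number as a block, all lower in KO. In the clock list 7 of 18 fell in KO, and 2 differed. ATF4 targets fell in KO in 22 of 26, and the difference passed in 10 (9 higher, 1 lower, or 4 lower without day 5 control replicate 4), with Ddit3 at 1.40 (adjusted p = 0.000115) and Aldh1l2, of the one-carbon list, at -0.07 (adjusted p = 0.752).

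Mitosis genes rose in KO cells in 54 of 65 cases and with a median log2 change of 0.83, and the difference passed in 30, always lower in KO. That count was 15 without day 3 control replicate 2, 12 without day 3 control replicate 3, 11 without day 3 KO replicate 2 and 49 without day 5 control replicate 4. For Plk1 the difference was -1.38 (adjusted p = 0.000631), with means of 16.4 and 31.9 CPM in KO. DNA replication genes rose in 24 of 50 and differed in 8 (4 without day 3 KO replicate 2, 5 without day 3 control replicate 3, 25 without day 5 control replicate 4), among them Rrm2 at -1.26 (adjusted p = 0.00261). In the SRF and YAP list 0 genes rose or fell in KO by edgeR (3 at an unadjusted p under 0.05, 0 by DESeq2; median log2 change 0.07) and 9 differed, all lower in KO (5 with the embryo as a block or without day 3 control replicate 3, 15 without day 3 control replicate 1). In the fibrillar matrix list 12 of 49 fell in KO, 0 rose and 16 differed (15 lower, 1 higher), with 9 lower without day 3 control replicate 2 or 3. Col1a1 averaged 13100 CPM at day 3 and 7110 CPM at day 5 in KO, a difference of -1.34 (adjusted p = 0.00119). The genes with the strongest evidence of a lower change in KO were Fst (-2.24, adjusted p = 1.97e-05), Plau (-1.81, 2.87e-05), Mylk (-3.52, 3.98e-05), Snai1 (-1.31, 5.09e-05) and the orphan receptor gene Gpr153 (-1.22, 5.09e-05). Mylk averaged 100 CPM at day 3 and 72.5 CPM at day 5 in KO, against 6.55 and 52.9 CPM in control cells.

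**Figure D5:**
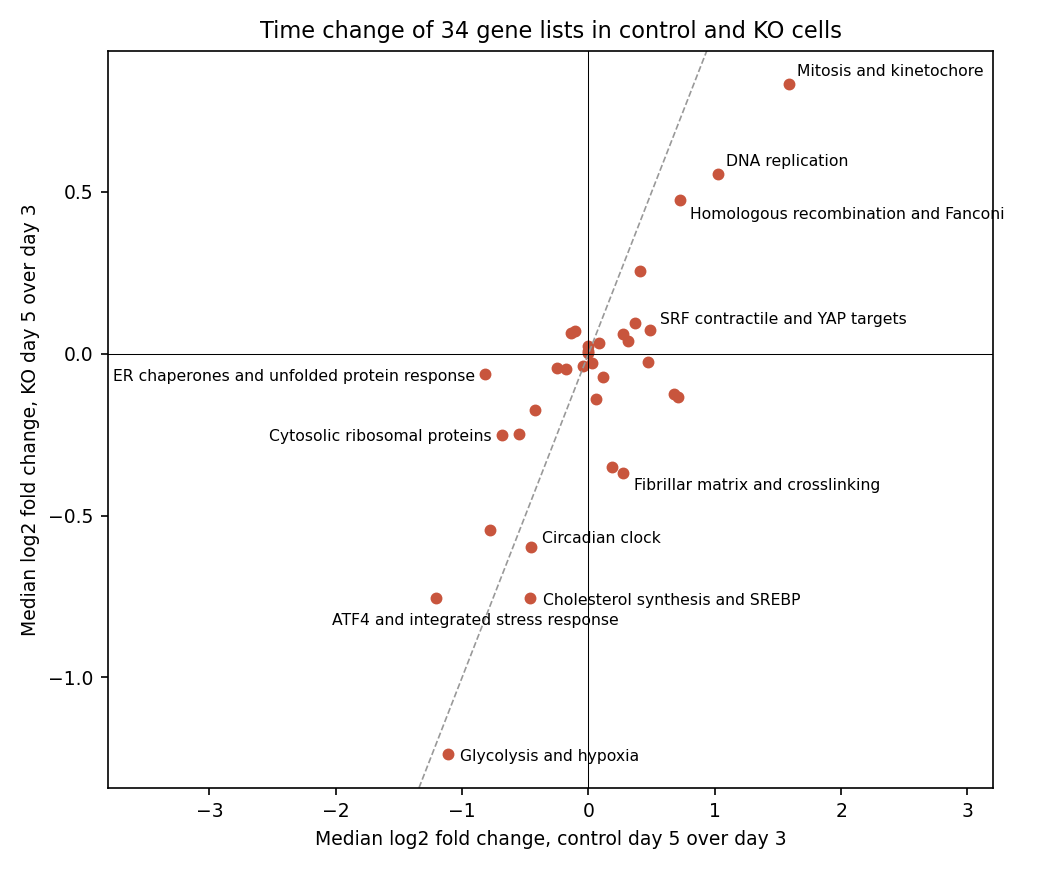
Each dot is 1 of 34 pathway lists, placed by the median log2 fold change of its tested members between day 3 and day 5 in control cells (x axis) and in KO cells (y axis); the dashed line marks equal change. The hypoxia list lies near the line (-1.11 and -1.24), the ER list near 0 on the KO axis (-0.82 and -0.06), and the mitosis list under the line (1.59 and 0.83).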

How the data were processed

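RNA from 14 mouse embryonic fibroblast cultures was made into stranded mRNA libraries and read in pairs, per the labels' protocols. The deposited values are counts, whole numbers per gene, assigned by the authors to genes of mm10 with featureCounts, per the submitters' processing notes. For the aligner, annotation and strand setting nothing is given in the sources used here, so overlapping and antisense genes may share counts. Of 27179 rows, 909 had no gene and were left out (0.194% to 0.315% of counts). Xist, Tsix and Y-linked genes (112 in the files) were kept out of tests, since by the labels 1 of the 7 controls is male.

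Genes were filtered with filterByExpr by group and counts scaled by TMM. All 14 libraries were fitted with 1 mean per group in edgeR 4.0.16 (robust quasi-likelihood, R 4.3.3, limma 3.58.1), and adjusted p values are Benjamini-Hochberg over 14327 genes. Sizes beyond 1.5-fold were tested with glmTreat. Differences from KO are the interaction contrast of the same fit. The SE is the log2 change divided by the root of its F statistic. Scripts were tested on simulated data. Library log2 CPM used a prior count of 2. CPM is not per length, so levels of different genes are not compared.

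The tests were two-sided and treated libraries as independent. Replicate numbers match embryo labels for replicates 1 and 3 but not 2, and same-numbered libraries correlated in their deviations from group means by 0.02, 0.111 and -0.023. The embryo label was therefore the blocking factor in 1 alternative and the replicate number in another. A library alone in its block does not enter the change over time. Among the controls these are day 5 replicates 2 and 4 for the embryo block and day 5 replicate 4 for the replicate block. Whether the day 3 replicates of embryo 218-e1 are separate cultures is not stated, so p-values measure the spread between these libraries. Their counts differed by more than sampling noise (chi-square per degree of freedom 15.0, against 7.68 and 6.04 for the other day 3 pairs), and they were kept as 2 libraries, with their sum as an alternative. Other alternatives were other scalings and filters, DESeq2 1.42.0, only the 7 controls, sex as a covariate, leaving out each library, and, added after seeing the data, only the embryos sampled at both days.

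Gene lists (44) and the comparison itself were chosen with earlier results of these data known. Named genes are Kat5, the CDK inhibitors, the 10 largest rises and falls at 2 CPM or more without overlap between days, the 5 most highly counted genes in each direction, up to 5 changed members per list with the smallest adjusted p, and the 5 differences from KO of each sign with the smallest adjusted p (clone names were passed over). Others are said to be chosen after their values were seen, and some results are not reported here. Promoter windows are RefSeq's (GRCm38.p6).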

Additional observations from a re-analysis of the deposited data

Results flagged for a closer look

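Among the 141 genes named here, 28 had a library that stood apart from the other 3 at day 5 by Dixon's test, and in 27 it was replicate 4. By chance about 1 in 20 groups (5%) would be marked. Replicate 4 was the highest, with 20.4 CPM for Aldh1a7, 17.6 CPM for C4bp, 4.22 CPM for Ism1, 32.1 CPM for Rarres1, 297 CPM for Prelp, 825 CPM for Cemip, 22700 CPM for Thbs1, 66.5 CPM for Mylk, 84.9 CPM for Npc1, 513 CPM for Cnn1 and 279 CPM for Id3, and with 4.95 CPM for Matn3, 2470 CPM for Col2a1, 79.9 CPM for Col10a1, 218 CPM for Ak1, 135 CPM for Myh11, 1680 CPM for Calr, 251 CPM for Dnajc3, 74 CPM for Syvn1, 6.55 CPM for Ero1b and 31.6 CPM for Txnip. It was the lowest, with 3.71 CPM for Cxcl5, 76.4 CPM for Mcm4, 1790 CPM for Scd2, 25.2 CPM for Nfil3, 37.2 CPM for Arntl and 64.8 CPM for Cdk1. For Gadd45a replicate 3 was the highest, with 18.9 CPM.

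The change over time differed between KO and control cells in 2051 genes by the interaction test, 93 of them named here. Values are the log2 change in KO minus that in control. It was -7.72 for Aldh1a7, -5.44 for Ppbp, -6.15 for Cxcl5, -5.02 for Ism1, -3.63 for Cemip, -4.03 for Ano5, -1.91 for Thbs1, -1.34 for Col1a1, -0.57 for Flna, -2.24 for Fst and -1.81 for Plau. Further lower changes were -3.52 for Mylk, -1.22 for Gpr153, -1.31 for Snai1, -1.22 for Cdkn2c, -0.90 for Tyms, -1.38 for Plk1, -1.45 for Nuf2, -0.95 for Nusap1, -1.26 for Rrm2, -0.80 for Rpa1 and -0.91 for Mcm4. The list of lower changes went on with -0.96 for Ccne1, -0.81 for Ccne2, -0.76 for Ccnd1, -0.77 for Fanca, -0.81 for Brca1, -0.55 for Bop1, -1.12 for Tpm1, -1.57 for Myl9, -1.63 for Cnn1, -1.86 for Emilin1 and -0.80 for Timp1. Others lower in KO were -0.93 for Id1, -0.84 for Id2, -1.35 for Id3, -1.95 for Sfrp1, -1.32 for Wnt2, -1.58 for Dkk3, -2.40 for Matn3, -2.75 for Sp7, -6.69 for Alpl, -2.83 for Ifitm1 and -0.54 for Psmc3. The last lower ones were -1.50 for Fas, -0.71 for Ak1, -3.07 for Myh11, -1.01 for Ccnb2 and -2.82 for Il6.

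The change was higher in KO by 3.59 for B4galnt2, 2.93 for Car6, 5.70 for Derl3, 5.15 for Ppp1r16b, 2.96 for Nrip2, 4.45 for Ecel1, 2.88 for Chchd10, 1.23 for Hsp90b1, 1.66 for Hspa5, 1.55 for Sdf2l1 and 1.13 for Atf6. Further higher changes were 1.62 for Gadd45a, 1.52 for Chka, 1.50 for Hyou1, 0.96 for Ero1a, 1.40 for Ddit3, 1.60 for Ppp1r15a, 0.84 for Chac1, 0.99 for Slc3a2, 2.28 for Atf3, 1.38 for Wars and 0.96 for Psph. Higher changes were also found at 1.05 for Npc1, 0.90 for Sqstm1, 0.73 for Rpl10a, 0.83 for Myc, 0.58 for Npm1, 0.47 for Plod2, 0.99 for Klf4, 2.38 for Klf15, 0.55 for Mbtd1, 1.03 for Cd68 and 1.00 for Gdf15. Others higher in KO were 0.78 for Hspa8, 0.84 for Calr, 0.48 for Canx, 1.59 for Creld2, 0.76 for Pdia6, 0.87 for Dnajc3, 0.67 for Syvn1, 2.12 for Ero1b, 1.25 for Zfp57, 0.83 for Alg12 and 0.74 for Pan2. For Alpl, at 0 in every day 3 control library, and for Aldh1a7, Ppbp, Ism1 and Sp7, at 0.156 CPM or less in each of them, the fitted value depends on the prior count, as it does for Ecel1 and other genes near 0 at day 5.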

How the results depend on the processing

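For the named genes and the counts of the control change, only control libraries were left out in turn, not KO ones. No fold change of the 141 named genes changed sign under any alternative run for them. The count of 5481 lay between 4293 and 5686 in all alternatives, between 4362 and 5686 with a library left out, that of rises between 2033 and 3014, and that of falls between 2247 and 3009. With a replicate block (the replicate number within genotype) it was 5583, and with the embryo as the block it was 4293, of which 3909 were shared with the 5481 and went the same way. Without day 5 replicate 4, 5686 genes changed and 5007 were shared. The balance of rises and falls, 2625 to 2856, turned with upper-quartile scaling, in which 3014 genes rose and 2560 fell. The count beyond 1.5-fold lay between 852 and 1259. The number of genes whose change differed in KO, 2051, ran from 1275 (without day 3 control replicate 3) to 2750 (without day 5 control replicate 4) when a library was left out. The cause was not tested. Of 135 named genes that changed, 117 did so in every alternative and 18 missed the threshold in at least 1; among the 6 that had not passed, 3 passed in at least 1. Flna missed it in 10 of 19, with adjusted p from 0.0599 to 0.188. Among the 19, keeping only the day 5 controls of litter 1 and leaving out day 5 replicate 4 are the same fit, counted under each name. Low counts limit genes near 0 at either day, and 3 libraries from 2 embryos at day 3 limit all of these results.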
